A study of Mus musculus with 6 samples.

Results

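The genes described here encode amino acid transporters of the plasma membrane and lysosome, followed in RNA of CD8T cells that had been cocultured with macrophages. Members were the protein-coding rows of the deposited count table whose gene symbol begins with Slc1a, Slc3a, Slc7a, Slc36a, Slc38a or Slc43a, which gave 43 of the 54532 genes in the table. The rule also takes in Slc7a6os, which lies beside Slc7a6 on the other strand and encodes no transporter, and Slc43a3, which carries nucleobases. Splenic CD8T cells of mice were stimulated with beads carrying anti-CD3/CD28 and then shared a culture for 24 hr with peritoneal macrophages, themselves exposed before to IFN-γ (10 ng/mL, 12 hr). In the control group (3 samples) the macrophages received no DB2313, and in the DB2313 group (3 samples) they had received this compound, which blocks the transcription factor Spi1 and for which the methods give 14 nM. GEO's labels divide the samples in the same way but call the cocultured cells DC cells. Neither the strain of the cells used here nor whether the 3 samples of a group were separate cultures is given in the sources used here, so p-values measure the spread between these samples, which may be technical.

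Amino acids cross membranes through carriers that differ in the charge of what they take. Slc7a1, Slc7a2 and Slc7a3 are uniporters of arginine and lysine, whereas Slc7a6 and Slc7a7 exchange a cationic amino acid for a neutral one with sodium and reach the membrane only when joined to the glycoprotein Slc3a2. Slc3a2 is the heavy chain of several other light chains too, among them Slc7a5 and Slc7a8 for large neutral amino acids and Slc7a11, which imports cystine in exchange for glutamate. Slc1a5 and the Slc38a family bring in glutamine and other small neutral amino acids, and activated T cells are known to raise the uptake of glutamine, leucine and arginine for growth. Slc36a1 and Slc38a9 act on the lysosomal membrane, where Slc38a9 also signals lysosomal arginine to mTORC1. The study followed Slc7a7 as a carrier of L-arginine in CD8T cells, and the comparison below asks which of the transporters differed between the groups, by substrate.

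Between 16611975 and 18596217 reads were counted per library. Libraries of a group differed by more than sampling noise, so none was counted as a copy of another. Genes that mark T cells were counted in all 6 libraries, where a list of 20 took from 0.35 to 0.357% of the control counts and from 0.563 to 0.568% of the DB2313 counts. A list of 25 macrophage genes took from 1.47 to 1.5% and from 0.637 to 0.648%. The resident macrophage gene Vsig4 was at 0 in all 6 libraries and Timd4 at 3 counts or fewer. The other 23 were counted often enough to be tested. Among them, Lyz2 had 138332, 130458 and 128493 counts in the control libraries and 38833, 35962 and 37566 in the DB2313 libraries. Neutrophil genes (9) took from 0.163 to 0.164% and from 0.0436 to 0.047%, dendritic cell genes (10) from 0.164 to 0.167% and from 0.148 to 0.153%, and B cell genes (8) from 0.00546 to 0.00587% and from 0.00862 to 0.00924%. Most counts of the dendritic cell list were of Ccr7 and Fscn1 (16123 and 10591 in control replicate 1, 15178 and 9228 in DB2313 replicate 1). In the same libraries Itgax had 1907 and 376 counts, Clec9a 142 and 26, Cd209a 70 and 8, and Flt3, which rose, 525 and 606. RNA of genes that mark other cell types was thus counted beside that of T cells, and what part the shift of these markers has in each difference below was not tested. In bulk RNA, fewer cells of a type and less RNA per cell cannot be told apart.

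The genes that fell most and were well counted, Slc7a7 and Slc7a11, are shown first by their promoter sequence. The windows run from 250 bases before to 50 bases after the transcription start and are RefSeq sequences of GRCm38.p6, written 5′ to 3′ on the strand of the gene. Capitals mark TGATGNAA on either strand, the letters of an amino acid response element, which is bound by Atf4 with a C/EBP partner.
Slc7a7 (chr14:54417895-54418194, minus strand): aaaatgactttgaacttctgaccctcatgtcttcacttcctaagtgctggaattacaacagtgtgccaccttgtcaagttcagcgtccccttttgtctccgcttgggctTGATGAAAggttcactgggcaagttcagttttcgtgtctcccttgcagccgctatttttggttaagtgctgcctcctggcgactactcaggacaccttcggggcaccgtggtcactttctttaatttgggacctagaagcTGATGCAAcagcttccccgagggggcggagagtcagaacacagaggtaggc
Slc7a11 (chr3:50443564-50443863, minus strand): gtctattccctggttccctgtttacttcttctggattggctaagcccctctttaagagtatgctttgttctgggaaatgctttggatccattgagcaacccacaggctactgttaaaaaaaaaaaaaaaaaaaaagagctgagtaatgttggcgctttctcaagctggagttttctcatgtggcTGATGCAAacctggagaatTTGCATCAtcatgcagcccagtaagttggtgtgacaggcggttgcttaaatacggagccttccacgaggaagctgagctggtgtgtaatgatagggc
With the first transcribed base as 1 and no position 0, the motif began at -141 and -1 in the Slc7a7 window and at -66 and, on the opposite strand, -47 in the Slc7a11 window. The Slc7a7 window was chosen among the 5 listed for this gene because it held most matches. The match at its start (chr14:54417938-54417945) also fell in 1 of the other 4 windows, and the remaining 3 held none. The whole chosen window lies upstream of the gene as counted, which begins at 54417780 on the minus strand. TGATGNAA was found in 3.97% of all 32851 promoter windows and in windows of 4.51% of genes. Among the 17 tested members with a promoter window it was found in Slc7a7, Slc7a11 and Slc1a4. GAGGAAGT, a purine-rich core that Spi1 binds, was found in 3.2% of all windows and, among these 17 members, in Slc43a1 only. No window of the 9 genes that were lower in the DB2313 group and had one held GAGGAAGT, which says only that these letters are not in these bases. Atf4 itself was named here because of this motif, after its values were seen. It went from 214.6 ± 1.63 to 265.7 ± 12.8 CPM (library counts scaled to a common total after TMM, ± SD, n = 3 each). On the log2 scale this is a rise of 0.31 (standard error 0.04, adjusted p = 2.79e-07), less than the median of 0.59 over the 20 T cell markers. Whether Atf4 protein or its binding to these windows differed was not tested.

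Of the 43 members, 25 were counted often enough to be tested. Of these, 17 passed the test at an adjusted p below 0.05 (68%, beside 45.4% of all tested genes), 11 of them lower and 6 higher in the DB2313 group than in the control group, and 8 did not pass. Adjusted p-values here and below come from the quasi-likelihood F-test of edgeR and were corrected by Benjamini-Hochberg over the 14883 tested genes. The 11 lower members are 44% of those tested and the 6 higher ones 24%, while over all tested genes 24.6% were lower and 20.8% higher. Past a 2-fold change, 3 members were lower and 0 were higher (all genes, 5.3% and 1.37%). Control and DB2313 libraries were fully apart in 12 members that were lower and 6 that were higher (all genes, 27.5% and 25.6%). The median log2 fold change of the tested members was -0.05, beside 0.02 for all tested genes, 0.59 for the T cell markers and -1.21 for the macrophage markers. Slc36a2, Slc7a3 and Slc7a4 passed the count filter in all libraries of 1 group only, so the counts over tested members lean toward differences. When the libraries were scaled to the 20 T cell markers instead of by TMM, the median of all genes moved to -0.56. With that scaling 22 members were lower, 8 of them past 2-fold, and 0 were higher. Over all 14883 tested genes it gave 11485 lower, 2482 of them past 2-fold, and 179 higher. Of the 8 members that did not pass with TMM, all but Slc7a4 were among the lower ones. The largest log2 fold change among the members called was -0.25, in Slc1a5. With library size scaling, which moved the median of all genes to 0.11, 11 members were lower and 7 higher, and over all genes 2852 were lower and 4931 higher, beside 3667 and 3096 with TMM. With upper quartile scaling the members gave the same counts, and all genes gave 3102 and 4319. The 11 falls were called under each scaling, whereas no rise was called when the libraries were scaled to the T cell markers.

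**Figure D1:**
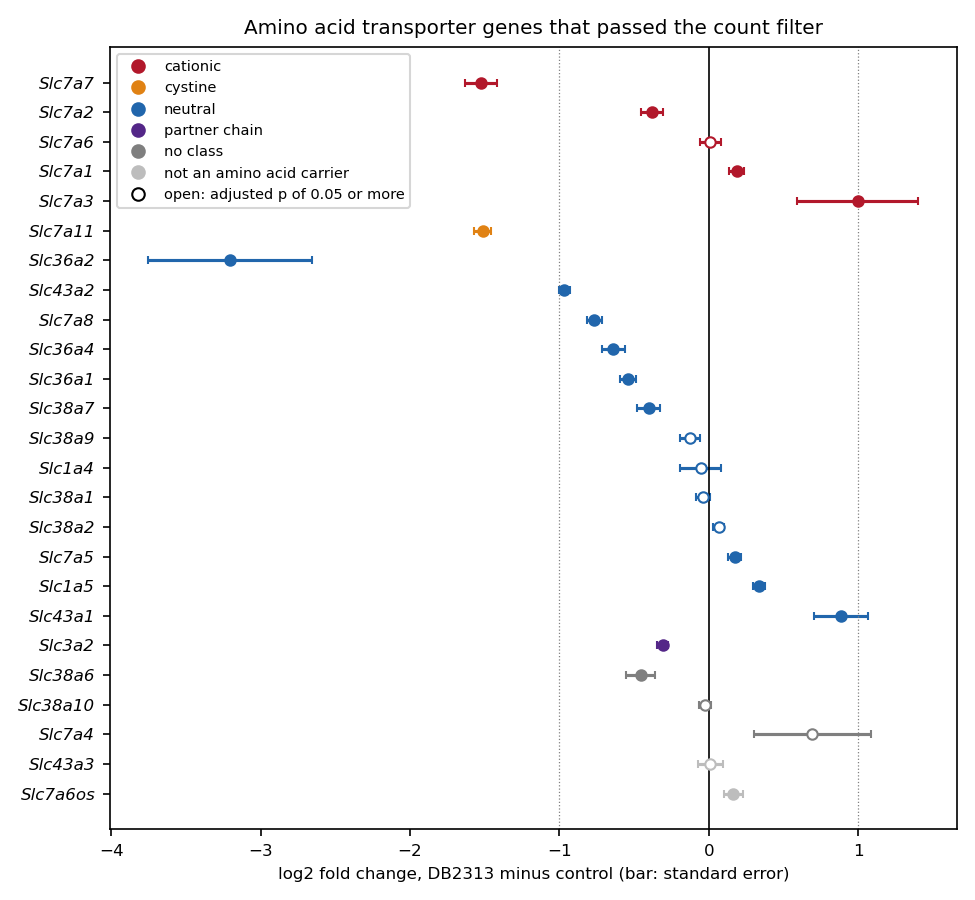
Log2 fold change (x axis, DB2313 minus control, bars show the standard error) of the 25 tested members, grouped and coloured by what they carry, with open circles for those whose adjusted p was 0.05 or more and dotted lines at a 2-fold change. Slc36a2, Slc7a7 and Slc7a11 lie left of the lower dotted line, and the other members lie between -0.97 and 0.999.

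Among the carriers of cationic amino acids, Slc7a7 fell, Slc7a2 fell less, Slc7a1 rose slightly and Slc7a6 did not pass the test. All 5 members of this class were tested. Slc7a7 (ENSMUSG00000000958, minus strand of chromosome 14 of GRCm38, 54369442 to 54417780), the y+L carrier mutated in lysinuric protein intolerance and known from intestine, kidney and macrophages, was at 33.4, 26.6 and 28.5 CPM in the control libraries and at 10.8, 11.1 and 8.86 CPM in the DB2313 libraries. Every control library lay far above every DB2313 library. Slc7a7 was 2.88-fold lower (log2 fold change -1.53, standard error 0.11, adjusted p = 2.16e-11). The change lay between -1.60 and -1.42 when each library was left out in turn. Of its exon bases, 7% are shared with Oxa1l, which runs the other way and was at -0.04 (log2), and whether the counting used strand is not given in the sources used here.
Slc7a6, the second y+L carrier, was at 37.0, 33.6 and 33.5 CPM in the control libraries and 33.1, 34.5 and 37.5 CPM in the DB2313 libraries. The groups overlapped, and its log2 fold change of 0.01 (standard error 0.07, adjusted p = 0.909) changed sign when control replicate 2 (-0.01) or 3 (-0.01) or DB2313 replicate 3 (-0.04) was left out. Scaled to the T cell markers, it was lower, at -0.57 (adjusted p = 9.19e-08). The ratio of Slc7a7 to Slc7a6 counts, which no scaling of the libraries can move, was 0.904, 0.791 and 0.849 in the control libraries and 0.325, 0.323 and 0.237 in the DB2313 libraries. Every control ratio exceeded every DB2313 ratio, a difference of -1.54 on the log2 scale (p = 0.1 in a two-sided exact permutation test, which cannot go lower with 3 libraries a group). This was 1 of 5 such comparisons within libraries, each with p = 0.1 in the exact permutation test and 0.1 after Benjamini-Hochberg adjustment.
Slc7a2, a uniporter of cationic amino acids that is inducible in macrophages, was at 41.0, 37.2 and 35.9 CPM in the control libraries and 27.3, 28.9 and 31.4 CPM in the DB2313 libraries. It differed by -0.38 on the log2 scale (standard error 0.07, adjusted p = 1.83e-04). Slc7a1, the widely expressed uniporter of the same kind, was at 68.7, 64.2 and 66.3 CPM and at 72.5, 76.0 and 78.5 CPM. The groups did not overlap in either gene, and they moved in opposite directions. Slc7a1 differed by 0.19 on the log2 scale (standard error 0.05, adjusted p = 3.99e-03), and by -0.39 with scaling to the T cell markers. Slc7a3 was near the limit of counting, with 9, 16 and 7 counts in the control libraries and 20, 27 and 20 in the DB2313 libraries. Its log2 fold change of 0.999 (standard error 0.41, adjusted p = 0.0485) no longer passed with DESeq2 (adjusted p = 0.15) or with no filter (adjusted p = 0.0737). Nor did it pass when the fit left out control replicate 1 (adjusted p = 0.165) or 3 (0.176) or DB2313 replicate 1 (0.062), 2 (0.191) or 3 (0.0576).
The make-up of the class changed with these genes. Divided by gene length, Slc7a7 made up 35.1, 31.7 and 33.4% of the summed counts of the 5 cationic carriers in the control libraries. It was the most abundant of the 5 in each. This rank rests on the division, as Slc7a1, Slc7a2 and Slc7a6 each had more undivided counts in every control library. In the DB2313 libraries Slc7a7 made up 16.2, 15.9 and 12.5%. The difference was -18.5 percentage points (two-sided exact permutation test, p = 0.1), or -10.6 when counts were not divided by length. Slc7a6 went from 28.6% ± 0.489 to 36.7% ± 1.35 and Slc7a1 from 21.7% ± 0.868 to 31.5% ± 0.298, whereas Slc7a2 was at 15.7% ± 0.435 and 15.3% ± 0.648 (SD, n = 3 each). The summed level of the class was 28.7, 25.3 and 25.7 CPM per kb in the control libraries and 20.1, 21.1 and 21.4 CPM per kb in the DB2313 libraries.

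Of the carriers of cystine, only Slc7a11 was tested, and it fell. Slc7a11 (ENSMUSG00000027737, chromosome 3, 49892526 to 50443614), the light chain of system xc-, which supplies cystine for glutathione synthesis and is a known target of Atf4 and Nrf2, was at 84.6, 87.4 and 83.6 CPM in the control libraries and at 30.1, 28.4 and 31.0 CPM in the DB2313 libraries. The spread within each group was small beside the gap between them. It was 2.85-fold lower (log2 fold change -1.51, standard error 0.06, adjusted p = 3.32e-16). Slc7a9, the carrier of cystine and cationic amino acids in kidney and intestine, had 0 counts in all 6 libraries, so that a level of 3 counts, at most 1.81e-05% of a library, could have been missed through counting error alone. Slc7a13 had 1 count in 1 library.

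Slc3a2, the heavy chain that these exchangers need, had the highest level per length of all members in both groups, at 72.4 ± 1.09 and 58.4 ± 2.45 CPM per kb (SD, n = 3 each). It was at 251.4, 255.7 and 259.1 CPM in the control libraries and 205.9, 215.1 and 197.8 CPM in the DB2313 libraries. Its fall, -0.31 on the log2 scale (standard error 0.04, adjusted p = 2.16e-07), was smaller than those of Slc7a7 and Slc7a11. The ratio of Slc7a7 to Slc3a2 counts went from 0.133, 0.104 and 0.11 to 0.0523, 0.0518 and 0.0448 (log2 difference -1.22), and that of Slc7a11 to Slc3a2 from 0.336, 0.342 and 0.323 to 0.146, 0.132 and 0.157 (log2 difference -1.20). The ratio of Slc7a5 to Slc3a2 moved the other way, from 0.383, 0.377 and 0.362 to 0.498, 0.527 and 0.542 (log2 difference 0.48). No group overlapped the other in any of these ratios (two-sided exact permutation test, p = 0.1 each).
Summed per length, the 6 light chains known to pair with Slc3a2 (Slc7a5, Slc7a6, Slc7a7, Slc7a8, Slc7a10 and Slc7a11) amounted to 97.3, 91.5 and 89.6% of the Slc3a2 level in the control libraries and 87.7, 90.6 and 94.6% in the DB2313 libraries, so that the groups overlapped in this sum. In the shares of single light chains they did not overlap, except in Slc7a10, whose shares lay between 0 and 0.534%. Slc7a5 made up 38.4% ± 0.851 of the light chains with control macrophages and 54.7% ± 0.678 with DB2313-treated ones (SD, n = 3 each). Slc7a8 went from 27.8% ± 0.45 to 20.6% ± 0.386, Slc7a7 from 13.2% ± 1.23 to 5.82% ± 0.693 and Slc7a11 from 9.12% ± 0.353 to 4.04% ± 0.301. Slc7a6 went from 11.3% ± 0.313 to 14.4% ± 0.93. Slc3a1, the other heavy chain, which pairs with Slc7a9, had 8, 9 and 2 counts in the control libraries and 4, 4 and 3 in the DB2313 libraries.

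**Figure D2:**
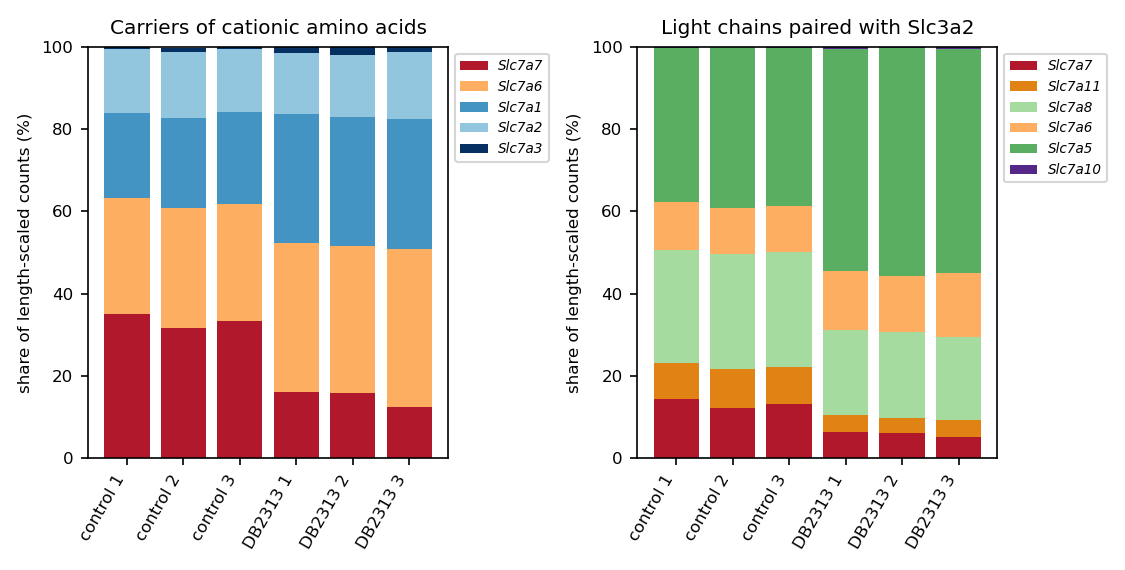
Share (y axis, % of counts divided by gene length) of each gene in the 5 carriers of cationic amino acids (left) and in the 6 light chains that pair with Slc3a2 (right), one bar per library. Slc7a7 (red) narrows from between 31.7 and 35.1% to between 12.5 and 16.2% of the cationic carriers, and Slc7a5 (dark green) widens from between 37.5 and 39.2% to between 54.0 and 55.4% of the light chains.

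Of the 21 carriers of neutral amino acids 13 were tested, of which 6 were lower (46.2%, beside 24.6% of all tested genes), 3 were higher (23.1%, beside 20.8%) and 4 did not pass, with a median log2 fold change of -0.12. Those that fell included 2 carriers of large neutral amino acids. Slc43a2, a uniporter of leucine, isoleucine, methionine and phenylalanine, was at 209.4, 215.5 and 211.9 CPM in the control libraries and at 110.7, 104.9 and 110.1 CPM in the DB2313 libraries. It differed by -0.97 on the log2 scale (standard error 0.04, adjusted p = 4.84e-16), and 9.18% of its exon bases overlap Gm45606 on the opposite strand, which was at -0.44. Slc7a8, a light chain that exchanges neutral amino acids and lies 304 kb from Slc7a7 on chromosome 14, was at 94.5, 93.3 and 91.8 CPM and at 53.1, 57.9 and 53.6 CPM. In both genes the highest DB2313 library was far below the lowest control library. Slc7a8 differed by -0.77 on the log2 scale (standard error 0.05, adjusted p = 7.11e-12).
In the Slc36a family, carriers of small amino acids such as proline, 3 of 4 members were tested and were lower, beside 24.6% of all tested genes, but Slc36a2 was tested only because it passed the count filter in the control libraries. The log2 fold change was -0.54 for Slc36a1, on the lysosome, and -0.64 for Slc36a4 (adjusted p = 1.88e-08 and 3.72e-07). Neither gene overlapped between the groups. Slc36a2, 19.3 kb from Slc36a1 on chromosome 11, had only 26, 25 and 14 counts in the control libraries and 1, 2 and 4 in the DB2313 libraries. Per total counts, the control level was 9.09 times the DB2313 level, with an exact Clopper-Pearson interval of 4.17 to 23.5 at 95% that covers counting error only (log2 fold change -3.21, standard error 0.55, adjusted p = 3.77e-05). Slc36a3, between 0 and 11 counts, was not tested.
Slc1a5, Slc7a5 and Slc43a1 rose. Slc1a5, a carrier of glutamine and other small neutral amino acids, was at 125.1, 126.0 and 128.3 CPM in the control libraries and at 164.1, 160.0 and 154.9 CPM in the DB2313 libraries. The groups did not overlap, and Slc1a5 differed by 0.34 on the log2 scale (standard error 0.04, adjusted p = 8.96e-08). Slc7a5, the light chain of the leucine transporter LAT1, was at 96.4, 96.3 and 93.7 CPM and at 102.5, 113.5 and 107.3 CPM, a log2 fold change of 0.17 (standard error 0.04, adjusted p = 2.45e-03). Both were below 0 with scaling to the T cell markers, at -0.25 and -0.41. Slc43a1, a leucine uniporter of low level, was at 3.16, 3.03 and 3.18 CPM and at 5.52, 6.45 and 5.38 CPM. It differed by 0.89 on the log2 scale (standard error 0.18, adjusted p = 2.56e-04), opposite to its family member Slc43a2, and 0.305 when scaled to the T cell markers (adjusted p = 0.126).
The Slc38a family includes sodium-coupled carriers of glutamine. Of its 6 tested members, 2 fell (33.3%, beside 24.6% of all tested genes) and 4 did not pass. Slc38a2, which is known to be induced when amino acids are scarce, was at 171.5, 168.0 and 162.4 CPM in the control libraries and 173.0, 171.4 and 181.4 CPM in the DB2313 libraries. Its groups overlapped, and the log2 fold change of 0.07 (standard error 0.04, adjusted p = 0.157) passed the test as a rise with library size scaling (0.16, adjusted p = 1.30e-03) and upper quartile scaling (0.13, adjusted p = 5.73e-03) and as a fall when scaled to the T cell markers (-0.52, adjusted p = 1.14e-11). Slc38a1 was at 151.9, 147.8 and 132.3 CPM and at 141.7, 139.4 and 140.0 CPM (log2 fold change -0.04, standard error 0.04, adjusted p = 0.517), a sign that turned with library size scaling, with upper quartile scaling and without control replicate 1. Slc38a9, the lysosomal arginine sensor, was at 37.6, 36.1 and 35.3 CPM and at 32.8, 35.2 and 32.1 CPM. Its libraries did not overlap, but the difference did not pass the test (log2 fold change -0.12, standard error 0.07, adjusted p = 0.143), except when scaled to the T cell markers (-0.71, adjusted p = 1.13e-09). Slc38a7 fell, with a log2 fold change of -0.40. Slc1a4, a carrier of alanine, serine and cysteine, was at -0.05 (standard error 0.14, adjusted p = 0.783), with a sign that turned with the same 2 scalings and without control replicate 3 or DB2313 replicate 2.

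**Figure D3:**
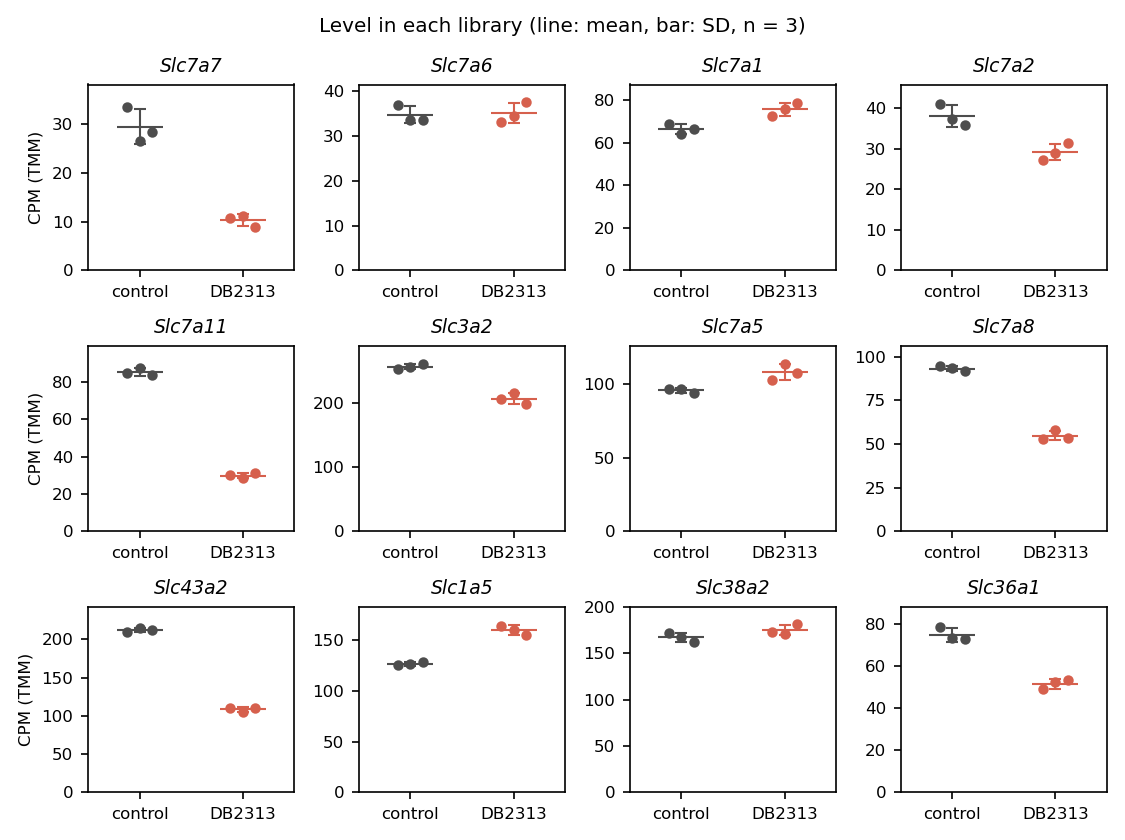
Level (y axis, CPM after TMM scaling) of 12 members in each control and DB2313 library (points), with the mean (line) and SD (bar) of 3 libraries. Control and DB2313 points are apart in Slc7a7, Slc7a11, Slc7a8 and Slc43a2, where the DB2313 points are lower, and in Slc1a5, where they are higher, while those of Slc7a6 and Slc38a2 overlap.

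Of the anionic class, which holds the glutamate carriers Slc1a1, Slc1a2, Slc1a3, Slc1a6 and Slc1a7, 0 of 5 members could be tested. Their summed counts were between 5 and 14 in a library. Slc1a1 had 3, 0 and 0 counts in the control libraries and 10, 3 and 8 in the DB2313 libraries, and Slc1a3 had 2, 5 and 6 and then 2, 1 and 1. Together with them, 18 members were not tested, of which 4 (Slc1a7, Slc7a9, Slc7a12 and Slc7a14) had 0 counts in all libraries and the other 14 at most 11 counts in any. The highest count in a library was 11 for Slc7a10 and Slc36a3, 10 for Slc1a1, 9 for Slc38a5 and Slc3a1, 6 for Slc1a3, 5 for Slc1a2, 3 for Slc7a15 and Slc38a11, 2 for Slc1a6 and 1 for Slc7a13, Slc38a3, Slc38a4 and Slc38a8. Among members with no class assigned, Slc38a6 fell, with a log2 fold change of -0.46. Slc38a10 was at -0.02 (standard error 0.04), with a sign that turned with library size and upper quartile scaling, and Slc7a4, at 8 to 33 counts, at 0.69 (standard error 0.39). Neither passed the test. Slc43a3 was at 0.01 (standard error 0.08, adjusted p = 0.93), and its sign turned without control replicate 3 or DB2313 replicate 1 and when scaled to the T cell markers (-0.57, adjusted p = 1.43e-06). Slc7a6os was at 0.17 (standard error 0.06, adjusted p = 0.031), and did not pass with DESeq2 (adjusted p = 0.0896), with no filter (0.058) or when control replicate 1 (0.0827) or 3 (0.0896) or DB2313 replicate 1 (0.0981) was left out. Scaled to the T cell markers, it was lower, at -0.42 (adjusted p = 1.79e-06).

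The order of the levels per length differed between the groups below the highest members. In the control libraries Slc3a2 was followed by Slc1a5 at 30.3 ± 0.396 CPM per kb, Slc7a5 at 25.7 ± 0.414, Slc38a10 at 24.3 ± 0.475 and Slc43a2 at 21.1 ± 0.304 (SD, n = 3 each). Slc38a2 at 18.9 ± 0.523 and Slc7a8 at 18.6 ± 0.28 came next and overlapped. In the DB2313 libraries Slc1a5 reached 38.26 ± 1.097 CPM per kb, Slc7a5 29.1 ± 1.48, Slc38a10 23.9 ± 0.67 and Slc38a2 19.8 ± 0.609, and Slc7a8 (10.96 ± 0.527) and Slc43a2 (10.8 ± 0.315) had dropped to a place where they overlapped each other and Slc7a6os (10.8 ± 0.307). Slc7a7 went from 8.90 ± 1.06 to 3.09 ± 0.369 CPM per kb. Its neighbours in the order, which it overlapped, were Slc38a7 (9.38 ± 0.935) and Slc38a1 (8.36 ± 0.599) in the control libraries and Slc36a4 (3.16 ± 0.245) in the DB2313 libraries.

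Carriers of amino acids outside these families were followed by a list of 35 symbols, of which 34 were in the table and 23 were tested. Of these, 15 were lower and 2 were higher in the DB2313 group, and 6 did not pass, with a median log2 fold change of -0.36. That is 65.2% lower and 8.7% higher, beside 24.6% and 20.8% over all tested genes. Past 2-fold the list held Slc25a18, a mitochondrial glutamate carrier with 23, 26 and 30 control and 13, 6 and 3 DB2313 counts, and Slc32a1, the vesicular carrier of GABA and glycine, with 15, 18 and 36 and 2, 2 and 1 counts. Both were low in all libraries. Slc32a1 was over the count filter in 3 control and 0 DB2313 libraries and Slc25a18 in 3 and 1, so a gene with such counts was tested only because it was high in the control group. A list of 38 symbols of amino acid sensing, which holds the Rag GTPases, the Ragulator subunits, sestrins, GATOR subunits and mTORC1 itself with Eif2ak4 and Atf4, had 34 genes in the table, and all 34 were tested. There 8 were higher, 13 were lower and 13 did not pass (23.5% and 38.2%), none past 2-fold, and the median was 0.01. The balance turned with library size scaling (12 higher, 10 lower) and with upper quartile scaling (11 higher, 10 lower). That of all tested genes turned too, from 3096 higher and 3667 lower with TMM. It was 4931 and 2852 with library size scaling and 4319 and 3102 with upper quartile scaling.

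The median of the transporters (-0.05), like that of all tested genes (0.02), lay between those of the macrophage and T cell markers. Slc43a1, at 0.89 (standard error 0.18), was above every T cell marker. Slc36a2 (-3.21, standard error 0.55) was below every macrophage marker and Slc7a3 (0.999, standard error 0.41) above every T cell marker. Both had few counts and passed the count filter in all libraries of 1 group only, so their place here is not a result. All 20 T cell markers rose, with log2 fold changes from 0.23 to 0.74 (of all tested genes, 20.8% were higher and 24.6% lower). Of the 23 tested macrophage markers 20 fell and 3 rose, with changes from -2.16 to 1.44. The 3 that rose were Trem2 (0.55), Marco (0.78) and Ms4a7 (1.44). All 9 neutrophil markers fell, from -0.75 to -3.92. Of the 9 tested dendritic cell markers 7 fell and 1 rose, with a median of -0.44. Cd209a (-3.54), Itgax (-2.52) and Clec9a (-2.15) fell most, Fscn1 (-0.20) and Ccr7 (-0.10) least. Of the 8 B cell markers 5 rose, with a median of 0.47. Past 2-fold, 13 macrophage, 8 neutrophil and 3 dendritic cell markers were lower and Ms4a7 was higher (all genes, 5.3% and 1.37%). Relative to the median of the T cell markers, Slc7a7 was at -2.12, Slc7a11 at -2.10, Slc7a6 at -0.58, Slc7a1 at -0.40 and Slc1a5 at -0.25. No transporter that passed the test rose by more than that median except Slc43a1 and Slc7a3, and neither of these passed when the libraries were scaled to the T cell markers.

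**Figure D4:**
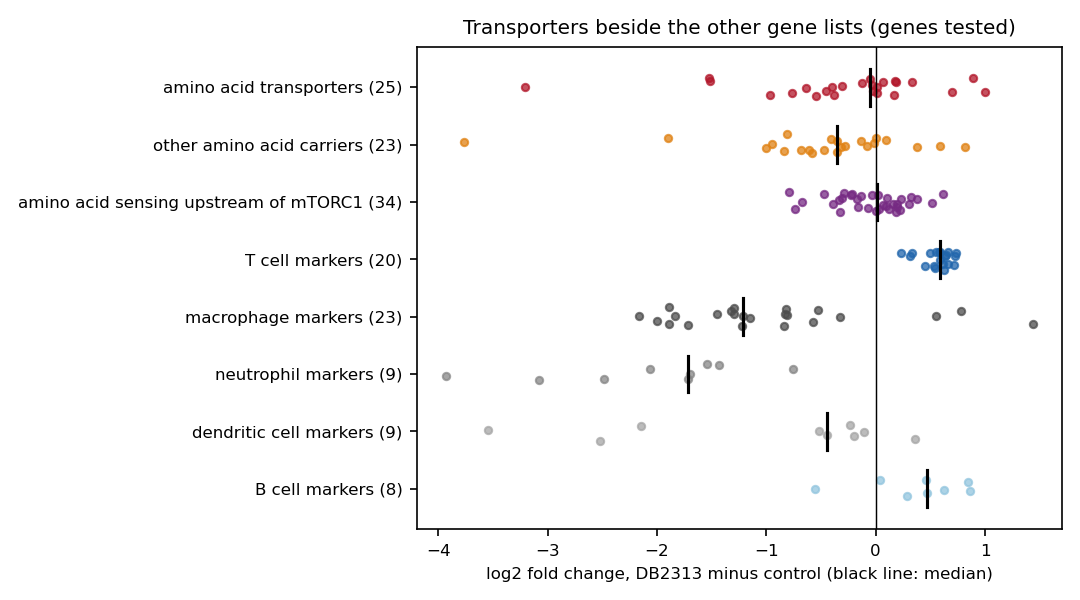
Log2 fold change (x axis, DB2313 minus control) of each tested gene (points) in the transporters and in 7 other gene lists (rows, number of genes tested in parentheses), with the median of each list as a black line. The transporters spread from -3.21 to 0.999 around a median of -0.05, beside the macrophage markers (median -1.21) and the T cell markers (median 0.59).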

How the data were processed

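RNA-seq counts of 6 mouse libraries (3 control, 3 DB2313) were analysed. The authors deposited raw counts per gene, without normalization. The submitters' processing notes list CASAVA 1.8, HISAT2 2.0.5 and featureCounts 1.5.0-p3, whereas the methods of the study name LifeScope 2.5.1 for alignment and counting. The genome build, annotation release and strand setting are not given in the sources used here. GENCODE mouse release 21 (GRCm38) and the table had 54409 genes in common, with equal coordinates for 98.3% and for 42 of the 43 members. Members, substrate classes and gene lists were chosen with earlier results of these data known. Symbols of the lists were matched exactly to the table, and 4 of the 38 sensing symbols and 1 of the 35 carrier symbols were not matched.

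Genes were tested in R 4.3.3 over the whole table with edgeR 4.0.16, using filterByExpr, TMM factors and the quasi-likelihood functions glmQLFit and glmQLFTest (prior count 0.125). An adjusted p below 0.05 was taken as a call, and an absolute log2 fold change above 1 as past 2-fold. Standard errors were the log2 fold change over the root of F. The common biological coefficient of variation was 4.67%. Counts of 16611975 to 18596217 per library set the precision, and intervals and limits cover counting error only, because the reads carry no molecular identifiers and may repeat a molecule. CPM per kb is CPM divided by the gene length of the deposited table. Ratios and shares within a library were compared with two-sided exact permutation tests. Both fits were tested on simulated counts. Alternatives were DESeq2 1.42.0 and its size factors, library size, upper quartile and T cell marker scaling, a minimum of 10 counts per library or no minimum, protein-coding genes only, a replicate block, leaving out each library and, for the cationic share, counts not divided by length. Genes given with values in every library are those past 2-fold, the 5 largest rises and falls among calls, the tested cationic and cystine carriers, the heavy chains, and Slc7a5, Slc1a5, Slc38a1, Slc38a2 and Slc38a9. Other tested members are given by their log2 fold change and members not tested by their highest count. Genes of the lists of other carriers and of amino acid sensing are named where past 2-fold. Of the marker lists only some genes are named, and those past 2-fold are given as counts. Atf4 was named in addition, after its values were seen, as was the choice of the Slc7a7 window. Protein sequences were not used here. Promoters were matched by symbol for 32 of the 43 members.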

Additional observations from a re-analysis of the deposited data

How the results depend on the processing

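Apart from scaling to the T cell markers, 347 comparisons of single members with an alternative were made, of which 319 changed neither sign nor call, 12 lost the call, 2 gained one and 14 turned sign. With that scaling, applied to single members after seeing the data, 12 of 25 changed neither, 2 lost the call, 4 gained one and 7 turned sign to a called fall: Slc1a5 (-0.246), Slc7a1 (-0.394), Slc7a5 (-0.409), Slc7a6os (-0.417), Slc38a2 (-0.516), Slc7a6 (-0.571) and Slc43a3 (-0.572). Slc7a7, Slc7a11 and the other 9 lower members were called lower in every alternative that tested them. Members called higher numbered 4 with DESeq2 or no filter and 4 to 6 with a library left out. Over all genes, 2386 of 16187 were higher with DESeq2, 3034 of 27310 with no filter and 2558 to 2894 with a library left out. The main fit gave 3096 of 14883. Scaled to the T cell markers, 0 members were higher, 22 were lower and 8 were lower past 2-fold. Over all genes that scaling gave 179 higher and 11485 lower, and 51 and 2482 past 2-fold. Higher past 2-fold were 103 genes with at least 10 counts and 133 among protein-coding genes, beside 204. There were 278 with library size scaling, 254 with upper quartile scaling and 201 with the replicate block. Past 2-fold, 1 member (Slc7a3) was higher with library size or upper quartile scaling, among protein-coding genes only and with the replicate block, and 0 to 1 with a library left out (1 without control replicate 2).
The signs that turned with other alternatives lay near 0. Slc38a10 was at 0.0697 with library size and 0.0392 with upper quartile scaling, Slc38a1 at 0.0566 and 0.0266 and Slc1a4 at 0.0418 and 0.0107. With a library left out, Slc38a1 ranged from -0.0921 to 0.00325, Slc7a6 from -0.0385 to 0.061, Slc43a3 from -0.0781 to 0.0722 and Slc1a4 from -0.153 to 0.0339. The cause was not tested.
Other carriers called higher were 1 with DESeq2 and 1 to 2 with a library left out (1 without control replicate 1 or 2 or DB2313 replicate 2 or 3). The median of the T cell markers was 0.685 with library size and 0.655 with upper quartile scaling, and 0.582 to 0.603 with a library left out. That of the macrophage markers was -1.18 with no filter or at least 10 counts, -1.12 and -1.15 with these scalings, -1.17 among protein-coding genes and -1.23 to -1.16 with a library left out. The difference in each ratio kept its direction without any 1 library, that of Slc7a7 to Slc7a6 between -1.61 and -1.38.
Replicate numbers 1 to 3 are shared by the labels of both groups, but same-numbered libraries did not deviate together (correlations of -0.00594, -0.0182 and -0.109), so the numbers were not taken as pairs. With the replicate as a block, 11 members were lower and 6 higher, and over all genes 3525 were lower and 2912 higher. The 18 members that were not tested had at most 11 counts in any library, and low depth and absence of expression were not told apart.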
